A study of Monodelphis domestica and Mus musculus with 2 samples.

Results

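Crh (corticotropin-releasing hormone) and Penk (proenkephalin) were measured across the layers of primary visual cortex (V1) in Stereo-seq sections of 1 gray short-tailed opossum (Monodelphis domestica) and 1 mouse. They are 2 of the 30613 features counted in the opossum and 2 of the 61317 counted in the mouse, and each was found by its symbol. The pair was chosen by its rank correlation with depth in the opossum section. Across opossum cells labelled glutamatergic, the normalized level of Crh had a Spearman's rho with depth of -0.245 (-0.283 to -0.223 in the single V1 regions), the third lowest of 4827 genes detected in at least 5% of those cells. Penk had a rho of -0.201 (-0.265 to -0.122) and the fifth lowest rank, and the gene just outside these 5 had -0.188. The fall with depth in the opossum therefore chose the genes, and their levels by depth, class and subclass are given below as a description without a test. In the mouse, Crh was detected in 1.52% and Penk in 2.21% of glutamatergic cells, under the 5% minimum, and neither has a rho.

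Crh encodes a peptide best known as the hypothalamic signal that makes the pituitary release ACTH during stress. In the neocortex it is made locally, and in rodents it is known from subsets of interneurons. The peptide acts on the receptors Crhr1 and Crhr2 and is bound by the secreted protein Crhbp. Penk encodes a precursor that convertases cut at pairs of basic residues to free Met-enkephalin and Leu-enkephalin, opioid peptides that act on the delta and mu receptors (Oprd1 and Oprm1).

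In the mouse annotation of GRCm39, the build to which the authors aligned the mouse reads, Crh is a protein-coding gene at chr3:19747565-19749655 on the minus strand, with 2 exons of which 1 is coding. Penk is a protein-coding gene at chr4:4132722-4141856 on the minus strand, with 2 exons, both coding, and a coding sequence of 804 bases. The repeated enkephalin codons are shown because they are what makes Penk an opioid precursor. Translation of the coding sequence found 7 copies of the pentapeptide, 6 with the sequence of Met-enkephalin and 1 with that of Leu-enkephalin, all in exon 2. The names below go by the pentapeptide alone. After copies 4 and 7 the next codons encode Arg-Ser and Arg-Phe, not a pair of basic residues. Each is printed 5′ to 3′ on the gene's strand, with the 15 bases of the pentapeptide in capitals and 6 flanking bases on either side in lower case.
Penk copy 1, Met-enkephalin, chr4:4134328-4134354: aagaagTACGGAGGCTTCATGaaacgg
Penk copy 2, Met-enkephalin, chr4:4134307-4134333: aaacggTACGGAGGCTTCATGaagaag
Penk copy 3, Met-enkephalin, chr4:4134220-4134246: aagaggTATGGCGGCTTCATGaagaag
Penk copy 4, Met-enkephalin, chr4:4134067-4134093: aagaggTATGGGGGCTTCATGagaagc
Penk copy 5, Met-enkephalin, chr4:4133995-4134021: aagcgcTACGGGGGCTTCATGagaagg
Penk copy 6, Leu-enkephalin, chr4:4133935-4133961: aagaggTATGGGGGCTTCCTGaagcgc
Penk copy 7, Met-enkephalin, chr4:4133842-4133868: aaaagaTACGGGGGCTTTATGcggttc
The 7 copies use 6 different spellings of the pentapeptide. The deposited counts are per gene, so that they do not separate these copies or the exons of either gene.

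In Stereo-seq, polyadenylated RNA of a section is captured by barcoded spots under the tissue, and the unique molecular identifiers (UMIs) are summed over cells segmented on an image of the section. The opossum was a male of about 6 months and the mouse a wild-type C57BL/6J male of about postnatal day 40, neither given any treatment named in the labels, and each library was made from a cut of 10 µm through a frozen block that held several coronal slices of that animal. V1 regions were outlined by hand by the authors to span layer 2/3 through layer 6, so that layer 1 is not included. After cells with few genes or UMIs were left out, they held 4806 of 80369 segmented cells (opossum, 3 regions) and 9127 of 120239 (mouse, 4 regions). The regions of a species lie in more than 1 slice, but they share an animal, a chip and a library and are not replicates. Species, animal and library cannot be told apart, and no p-value is given.

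The median V1 cell held 1326 UMIs (opossum; 1048 to 1503 by region) or 1305 UMIs (mouse; 1259 to 1343 by region), and the libraries shared 0 cell barcodes. Levels below are UMIs of a gene per 10000 UMIs of the cells named, with exact 95% Poisson intervals. Intervals of cell shares are Clopper-Pearson at 95%, and both kinds cover counting error only. The class and subclass labels were transferred by the authors from snRNA-seq of the same species through nearest neighbors in gene expression, so that Crh and Penk may themselves have entered the labels. Class and subclass were assigned in separate steps and do not nest. In the opossum, 677 cells were nonneuronal by class, but 495 were astrocytes and 565 oligodendrocytes by subclass. A subclass and a class that are set against each other below can therefore share cells. The labels separated known markers only in part. In the opossum, the GABAergic enzyme Gad1 was at 11.6 per 10000 in GABAergic and 2.36 in glutamatergic cells, and the myelin gene Mbp at 71.2 in oligodendrocytes (OD) and 28.5 in glutamatergic cells. In the mouse, Gad1 was at 4.67 and 1.88, and the vesicular glutamate transporter Slc17a7 at 10.5 in glutamatergic, 8.81 in GABAergic and 10.8 in nonneuronal cells. Of the microglial genes, Cx3cr1 was at 1.12 and Csf1r at 0.836 in opossum microglia (Micro), against 0.111 and 0.0730 in glutamatergic cells, whereas C1qa had no UMI in them and P2ry12 was at 0 in every class. Levels by class below are therefore those of labelled cells, each of which also holds UMIs of other types.

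Crh was spread over the upper layers of opossum V1 and was nearly gone from the deep layers. It had 1290 UMIs in V1, or 1.86 per 10000 (1.76 to 1.96). The 3 regions gave 1.84, 1.63 and 2.37 per 10000. Region 3 was the highest and its interval (2.12 to 2.64) lay above those of the other regions. It also had the fewest UMIs per cell. In glutamatergic cells the level was 1.96 per 10000 (1.85 to 2.08), and 17.6% of 3752 cells had at least 1 UMI (16.4% to 18.9%).

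In 10 equal bins of relative depth, from the top to the bottom of V1, the Crh level of opossum glutamatergic cells was 3.16, 3.39, 3.74, 3.64, 3.37, 1.74, 0.924, 0.544, 0.213 and 0.221 per 10000. The first 5 bins had overlapping intervals, and the level then fell in steps to bin 9. Cells at relative depths under 0.5 (upper V1) had 3.43 and the others (lower V1) 0.682 per 10000, a ratio of 5.03 (4.31 to 5.90, conditional exact binomial interval). The regions gave ratios of 4.44, 6.07 and 4.70. Among all 10067 opossum genes with at least 50 UMIs in glutamatergic cells, 6.79% were at least 1.5-fold higher in upper V1 and 7.34% in lower V1, and the median ratio was 0.979. The choice of Crh used this contrast, and nothing is read from its place among those genes. The mean relative depth of Crh UMIs in glutamatergic cells, each cell scaled to the same total, was 0.304 (0.284 to 0.320 over regions), against 0.482 for the cells themselves, where 0 is the top and 1 the bottom.

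Penk fell from the top of opossum V1 without the plateau seen for Crh. It had 400 UMIs in V1, or 0.577 per 10000 (0.522 to 0.636), and the regions gave 0.599, 0.584 and 0.517, whose intervals overlapped. In glutamatergic cells the Penk level was 0.630 (0.565 to 0.700), and 6.64% of the cells had at least 1 UMI (5.86% to 7.48%). From the top bin to the bottom one, the Penk level of glutamatergic cells was 1.81, 1.38, 1.11, 0.968, 0.379, 0.193, 0.217, 0.211, 0.0760 and 0.0789 per 10000. The level of the fourth bin (0.685 to 1.33) lay below that of the first (1.49 to 2.17). In the fifth bin the Penk level was 0.379 (0.225 to 0.599), below all 4 bins above it. Upper V1 had 1.18 and lower V1 0.150 per 10000, a ratio of 7.88 (5.73 to 11.1), and the regions gave 8.03, 12.4 and 3.91. In region 3 the Penk level was 1.01 in the top bin, 0.560 in the second and 1.91 in the third, whereas regions 1 and 2 had 1.68 and 2.21 in the top bin. Glutamatergic cells of upper V1 held only 51 Penk UMIs in region 3. The interval of its ratio (2.13 to 7.66) overlapped those of region 1 (4.87 to 14.0) and region 2 (6.84 to 24.6). The mean relative depth of Penk UMIs was 0.239 in glutamatergic cells (0.162 to 0.302 over regions).

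**Figure D1:**
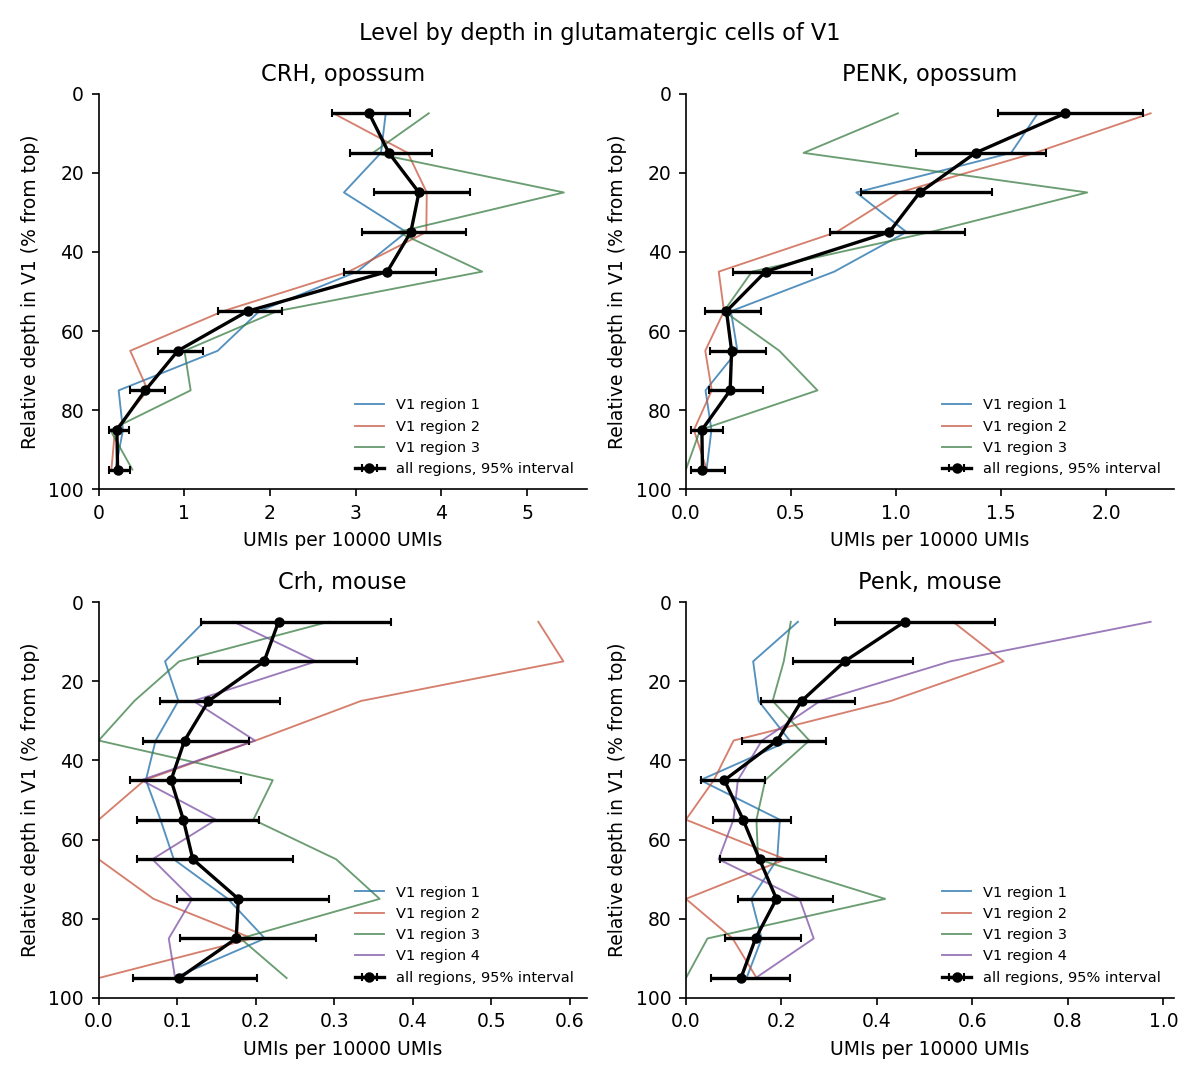
Level of Crh and Penk (x axis, UMIs per 10000 UMIs) in glutamatergic cells by relative depth in V1 (y axis, percent from the top) in each species. Black points are all regions together with 95% Poisson intervals, and coloured lines are single regions. In the points of all regions together, opossum Crh stays between 3.16 and 3.74 in the upper 5 bins before it falls. Opossum Penk falls from 1.81 at the top, and the mouse points of all regions together stay below 0.5.

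Crh fell with depth in cells labelled GABAergic or nonneuronal too. GABAergic cells of the opossum had 1.44 per 10000 (1.14 to 1.79) and nonneuronal cells 1.49 (1.25 to 1.77). The upper-over-lower ratio of Crh was 4.42 (2.52 to 8.21) in GABAergic cells and 4.37 (2.94 to 6.61) in nonneuronal cells, against 5.03 in glutamatergic cells. By subclass label, whose cells are not all nonneuronal by class, the ratio was 4.50 (2.72 to 7.77) in astrocytes (Astro) and 5.77 (3.59 to 9.36) in oligodendrocytes. Precursors of oligodendrocytes had 2.52 (1.13 to 6.16), and endothelial cells, with 7 UMIs in upper and 7 in lower V1, had 0.867 (0.260 to 2.90). L6CT, the corticothalamic cells of layer 6, had 4.11 per 10000 in the 65 cells labelled so in upper V1 and 0.181 in the 503 of lower V1. The share of cells with Crh was 9.38% in the oligodendrocyte subclass (7.11% to 12.1%, median of 1077 UMIs). It was 17.6% in the glutamatergic class (median of 1343.5 UMIs), which can share cells with that subclass. After every cell was thinned to 300 UMIs, which left out 19 and 128 shallower cells, these shares were 3.66% (2.25% to 5.60%) and 5.27% (4.56% to 6.05%), with overlapping intervals.

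The Penk level of nonneuronal cells lay below that of glutamatergic cells. Glutamatergic cells had 0.630 per 10000, GABAergic cells 0.510 (0.339 to 0.736) and nonneuronal cells 0.291 (0.189 to 0.430). The upper-over-lower ratio of Penk was 2.02 (0.885 to 4.90) in GABAergic and 2.56 (1.08 to 6.38) in nonneuronal cells, which rests on 28 and 25 UMIs. Oligodendrocytes had Penk in 2.12% of cells (1.10% to 3.68%), and after thinning in 0.549% (0.113% to 1.6%), against 1.46% (1.10% to 1.91%) of glutamatergic cells.

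**Figure D2:**
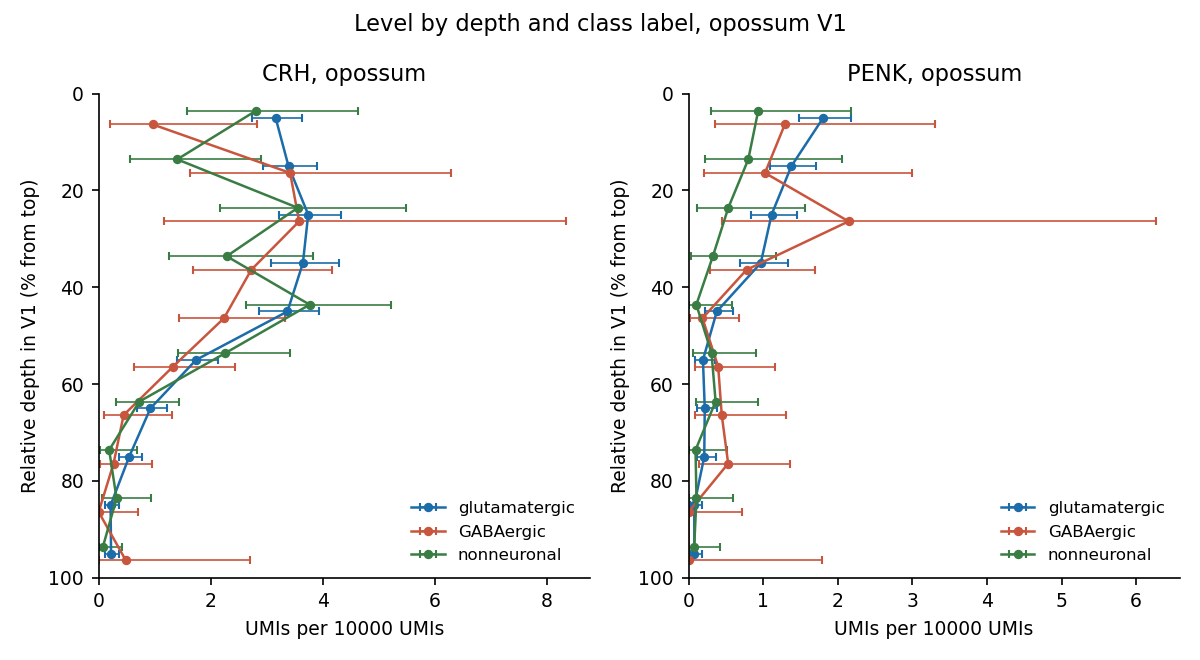
Level of Crh and Penk in opossum V1 (x axis, UMIs per 10000 UMIs) by relative depth (y axis, percent from the top) for cells labelled glutamatergic, GABAergic and nonneuronal, all regions together, with 95% Poisson intervals and points shifted slightly in depth so that they can be told apart. Crh falls with depth in all 3 classes, and for Penk the nonneuronal cells lie below the glutamatergic cells in the upper bins. Both genes were chosen by their detection in glutamatergic cells, which favours that class.

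Since depth and label go together, each label was also compared with all V1 cells of the same region and depth bin, itself included. A value of 1 then means that the cells hold as many UMIs of the gene as their position alone gives. Over glutamatergic cells of the opossum the observed Crh count was 1.04 times the expected one (0.974 to 1.10), over nonneuronal cells 0.911 times (0.760 to 1.08) and over GABAergic cells 0.755 times (0.598 to 0.941). Glutamatergic cells hold 1074 of the 1290 Crh UMIs, which keeps their own ratio near 1 by construction, and nothing is read from it. The interval of nonneuronal cells included 1, and cells GABAergic by class lay below it. The interneuron subclasses had intervals that included 1. Pvalb held 0.952 times the expected Crh (0.766 to 1.17), Sst 0.904 times (0.673 to 1.19) and Vip 0.667 times (0.288 to 1.31). For Penk the values were 1.03 (0.922 to 1.14) in glutamatergic, 1.12 (0.743 to 1.61) in GABAergic and 0.665 (0.431 to 0.982) in nonneuronal cells. The choice of genes by their detection in glutamatergic cells favours that class here too. Whether RNA that spread between cells accounts for the Crh of nonneuronal cells was not tested.

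Among the 14 opossum subclasses with at least 25 V1 cells, Crh was highest in IT_A, the intratelencephalic subclass of the upper layers. IT_A had 3.03 per 10000 (2.81 to 3.26), and 25.9% of its 1596 cells had Crh (23.8% to 28.2%). Its level was 3.09, 2.82 and 3.39 in the 3 regions. The next labels were microglia with 2.79, oligodendrocyte precursors (OPC) with 2.41, Sst with 2.17, endothelial cells (Endo) with 2.06, IT_B with 1.74, Pvalb with 1.64, Vip with 1.62 and astrocytes with 1.6. L5PT (1.19), oligodendrocytes (1.13), IT_C (0.779), L6CT (0.411) and L5NP (0.146) followed. Every neighboring pair in this order had overlapping intervals, and so did IT_A and microglia, whose 10 UMIs gave an interval of 1.34 to 5.13.

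Penk was also highest in IT_A, at 1.05 per 10000 (0.921 to 1.19), and 10.7% of IT_A cells had Penk (9.18% to 12.3%). The regions gave 1.01, 1.15 and 0.895. Endothelial cells (1.03, from 7 UMIs), precursors of oligodendrocytes (0.948), Sst (0.681), microglia (0.558), IT_C (0.414), Vip (0.405), Pvalb (0.396), L5PT (0.339), astrocytes (0.283), L6CT (0.190) and oligodendrocytes (0.176) followed. Neighbors in this order again had overlapping intervals. At the end stood IT_B with 0.0472 per 10000 (0.00119 to 0.263), which is 1 UMI in 126 cells. L5NP had 0 positive of 39 cells, which allows a share of cells with a UMI of up to 7.69% by the limit of 3 counts and of up to 9.03% by the Clopper-Pearson interval.

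**Figure D3:**
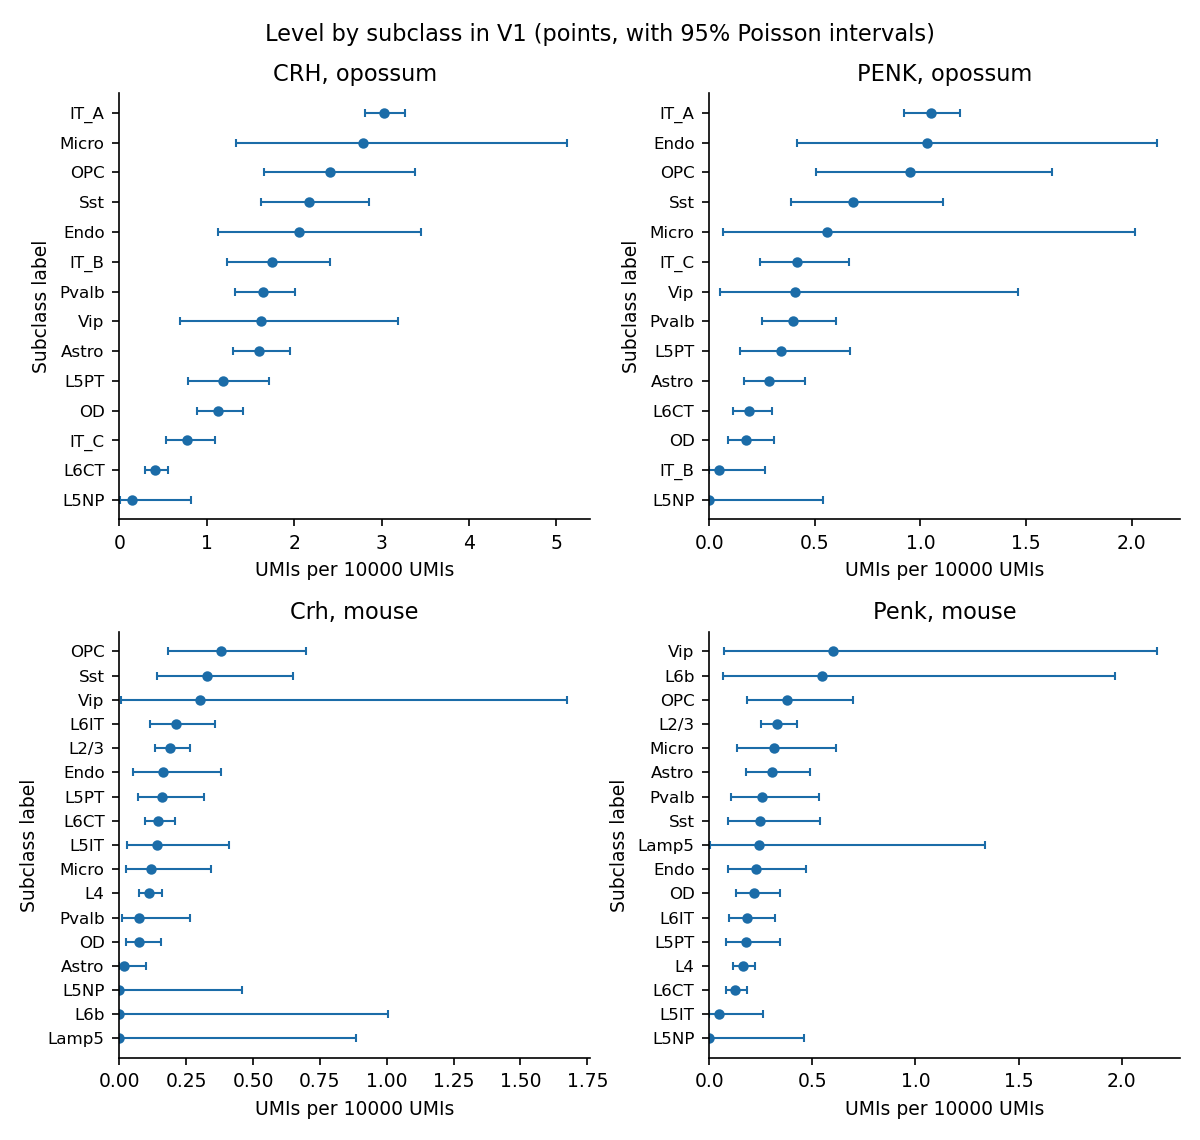
Level of Crh and Penk by subclass label in V1 (x axis, UMIs per 10000 UMIs) with 95% Poisson intervals, sorted by level in each panel. IT_A leads in the opossum for both genes, with 3.03 and 1.05, and the mouse intervals overlap widely.

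Among the intratelencephalic subclasses, IT_B lay below position for both genes. IT_A, which makes up a large part of the cells it is compared with, held 1.08 times the Crh of all cells at its positions (1.00 to 1.16) and 1.02 times the Penk (0.898 to 1.16). IT_B held 0.705 times the Crh (0.496 to 0.972) and 0.118 times the Penk (0.00299 to 0.659), with 1 Penk UMI observed against 8.46 expected. In upper V1, IT_B cells had 0 Penk UMIs against 5.73 expected. IT_C held 0.766 times the Crh (0.524 to 1.08) and 1.49 times the Penk (0.865 to 2.38). L5PT, the pyramidal tract cells of layer 5, held 1.5 times the Crh (0.998 to 2.17). Astrocytes were below position for Crh, at 0.813 (0.658 to 0.992), and for Penk, at 0.547 (0.319 to 0.876). Oligodendrocytes were at 1.03 for Crh (0.810 to 1.28) and at 0.630 for Penk (0.325 to 1.10).

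IT_A cells deep in V1 held more Crh than their position gave. In lower V1, 325 IT_A cells held 75 Crh UMIs against 53.6 expected from position, a ratio of 1.4 (1.10 to 1.75), and their level was 1.54 per 10000 against 3.42 in upper V1. The lower level was 1.55, 1.08 and 2.53 in regions 1, 2 and 3. Depth within a bin was not matched. For Penk the same cells held 6 UMIs against 11.1 expected, a ratio of 0.542 (0.199 to 1.18), and the level was 0.124 against 1.29. Within IT_A the upper-over-lower ratio was 2.22 for Crh (1.74 to 2.86; regions 2.24, 3.04 and 1.43) and 10.5 for Penk (4.73 to 28.8). Penk ratios of IT_A were 6.09 and 14.0 in regions 1 and 2, and in region 3, with 37 UMIs above and 0 below, it was at least 3.48 against a floor of 3 UMIs, with a lower limit of 2.69 by the conditional interval. The pooled ratio was 19.2 without region 1. By depth bin, Crh in IT_A cells was 3.05, 3.36, 3.77, 3.83, 3.5, 2.71, 0.717 and 1.38 per 10000 in the first 8 bins and was not detected in the last 2, which held 36 cells. Against all glutamatergic cells, IT_A was higher in the sixth and eighth bins and lower in the seventh. Penk in IT_A cells went from 1.90 in the top bin to 0.583 in the fifth and 0.104 in the sixth. Within this subclass, too, the Crh intervals of the first 5 bins overlapped, and Penk fell from the top bin.

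**Figure D4:**
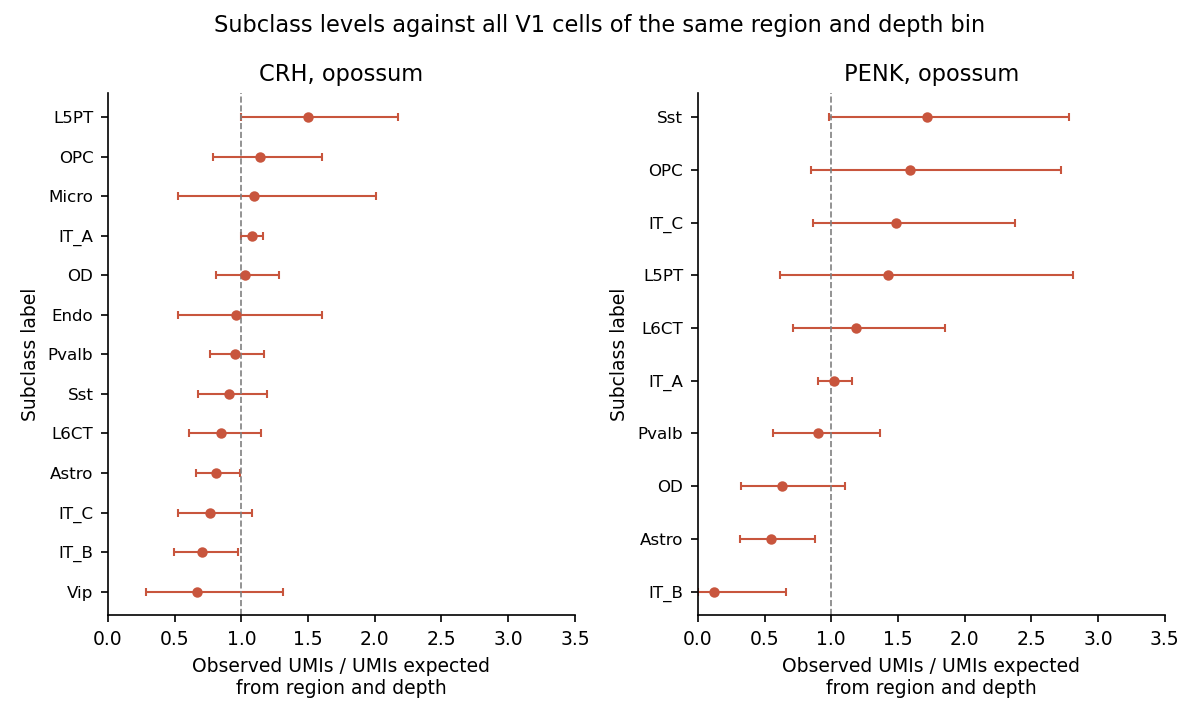
Observed UMIs of Crh and Penk divided by the UMIs expected from region and depth bin (x axis), by subclass label, in opossum V1, for subclasses with at least 5 expected UMIs, with 95% Poisson intervals. The dashed line marks 1. Most intervals include 1, whereas IT_B lies at 0.705 for Crh and at 0.118 for Penk.

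Opossum cells labelled IT_A carry several deposited cluster numbers. Within IT_A the paper names clusters 1 and 5 and another major one, but it gives cluster 3 to L6CT. No deposited cluster with at least 25 IT_A cells bears the number of that other major one. The deposited numbers were not matched to those of the paper. The 571 cells of cluster 1 and the 641 of cluster 3 lay at median relative depths of 0.197 and 0.202. Their Crh levels were 3.06 (2.70 to 3.46) and 3.14 (2.79 to 3.52) per 10000, and their Penk levels 1.01 (0.804 to 1.25) and 1.29 (1.07 to 1.54), with overlapping intervals for both genes. Clusters 4, 5 and 6, with 61 to 69 cells each and median depths near 0.5, had Crh levels of 2.88, 2.57 and 2.43 and Penk levels of 1.07, 0.415 and 0.365, which rest on at most 10 Penk UMIs.

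Most opossum cells with Crh held a single UMI. Of 4806 opossum V1 cells, 516 had 1 Crh UMI, 177 had 2 and 119 had 3 or more, with a highest count of 8. The 119 cells held 32.6% of all Crh UMIs in V1. By class, 2.83% of glutamatergic, 1.21% of GABAergic and 1.18% of nonneuronal cells had 3 or more, and 74 of the 119 cells were labelled IT_A. For Penk, 223 cells had 1 UMI, 47 had 2 and 23 had 3 or more, with a highest count of 7. Of these 23 cells 21 were glutamatergic, and 0 of 677 nonneuronal cells reached 3 UMIs.

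Cells close to a Crh-rich cell held more Crh than their position gave. The 107 cells whose center lay within 15 µm of a cell with at least 3 Crh UMIs had 35 UMIs against 23.7 expected, a ratio of 1.48 (1.03 to 2.06). From 15 to 30 µm the ratio was 0.988 (0.836 to 1.16), and from 30 to 60 µm it was 1.07 (0.963 to 1.19). For Penk only 20 cells lay within 15 µm of such a cell, with 1 UMI against 2.00 expected.

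Glutamatergic cells with and without Crh had Penk at shares and levels with overlapping intervals. In upper opossum V1, 13.1% of 519 glutamatergic cells with Crh also had Penk (10.3% to 16.3%), against 10.1% of 1439 cells without Crh (8.57% to 11.7%). The cells with Crh had a median of 1485 UMIs and those without 1062. Per 10000 UMIs, the Penk level was 1.29 (1.06 to 1.56) and 1.13 (0.976 to 1.30), with overlapping intervals. In IT_A cells of upper V1 it was 1.51 (1.22 to 1.84) with Crh and 1.18 (0.991 to 1.39) without.

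In mouse V1, Crh was sparse at every depth. It had 182 UMIs, or 0.145 per 10000 (0.125 to 0.168), and the 4 regions gave 0.128, 0.162, 0.147 and 0.161. Glutamatergic cells had 0.146 (0.122 to 0.173), GABAergic cells 0.211 (0.118 to 0.348) and nonneuronal cells 0.119 (0.0797 to 0.171), with overlapping intervals. In glutamatergic cells upper V1 had 0.151 and lower V1 0.140, a ratio of 1.08 (0.749 to 1.56). The regions did not share a direction, with ratios of 0.646, 4.69, 0.462 and 1.58, and the pooled ratio was 0.748 without region 2 and 0.579 after thinning. Among 12369 mouse genes tested in the same way, 6.48% were at least 1.5-fold higher in upper V1 and 4.53% in lower V1, with a median ratio of 0.999. By bin, mouse Crh ranged from 0.0922 to 0.229 per 10000, with no bin above 19 UMIs.

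Mouse subclasses had few Crh UMIs each. The highest levels were those of OPC (0.379, from 10 UMIs), Sst (0.330, from 8 UMIs) and Vip (0.301, from 1 UMI), and L2/3 had 0.190 (0.132 to 0.264). Sst cells held 2.34 times the Crh of all cells at their positions (1.01 to 4.61) and OPC 2.38 times (1.14 to 4.39). The 8 Sst UMIs lay in 4 cells, all in lower V1, and the 10 OPC UMIs in 5 cells. These intervals count UMIs of 1 cell as independent and so rest on few cells. Astrocytes had 1 UMI in 447 cells, 0.120 times the value from position (0.00303 to 0.668). L5NP, L6b and Lamp5 had no UMI in 60, 26 and 35 cells. The Clopper-Pearson intervals allow shares of cells with a UMI of up to 5.96%, 13.2% and 10.0%, and the limit of 3 counts allows up to 5%, 11.5% and 8.57%. Of all mouse V1 cells 10 had 3 or more Crh UMIs, of which 5 were glutamatergic, 2 GABAergic, 2 nonneuronal and 1 without a class label.

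Penk in mouse V1 was also sparse, and it was higher in the upper layers of glutamatergic cells when regions were pooled. It had 266 UMIs, or 0.212 per 10000 (0.188 to 0.240), and the regions gave 0.181, 0.194, 0.207 and 0.286. Glutamatergic cells had 0.201 (0.172 to 0.233), GABAergic cells 0.225 (0.129 to 0.366) and nonneuronal cells 0.234 (0.177 to 0.303). From the top bin down, the Penk level of mouse glutamatergic cells was 0.458, 0.333, 0.242, 0.191, 0.0806, 0.120, 0.154, 0.190, 0.146 and 0.115 per 10000. The top bin (0.313 to 0.646) lay above the fifth (0.0324 to 0.166), and the lower bins did not go on falling. Upper V1 had 0.25 and lower V1 0.145, a ratio of 1.73 (1.25 to 2.40). The regions gave 0.989, 4.07, 1.36 and 2.31, so that region 1 was not higher in upper V1.

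By mouse subclass, L2/3 had 61 Penk UMIs and a level of 0.331 (0.253 to 0.425), with 0.160, 0.494, 0.236 and 0.553 in the regions. L4 had 0.164 (0.117 to 0.222) and L6CT 0.125 (0.0809 to 0.185). Vip (0.602) and L6b (0.545) stood first with 2 UMIs each. Against position, L2/3 was at 1.05 (0.806 to 1.35), L4 at 0.775 (0.556 to 1.05) and astrocytes at 1.38 (0.803 to 2.21). In upper V1, 2.39% of glutamatergic cells without Crh had Penk (1.92% to 2.93%), as had 3 of the 52 with Crh.

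Set side by side, the Crh level of glutamatergic cells was 1.96 per 10000 (opossum) and 0.146 (mouse), and that of Penk 0.630 and 0.201. The genes were chosen in the opossum, among genes detected in at least 5% of its glutamatergic cells, which favours a higher level there, so that these values are a description. The opossum gene models had extended 3′ ends and the annotations differ, and their part in these levels was not tested.

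Genes that act with Crh and Penk were taken from fixed lists. In the opossum, 4 of 7 genes of the CRH system have a feature with that symbol, and 2 of them, Crh and Crhbp, had at least 50 UMIs in glutamatergic cells. Crhbp, the binding protein of the peptide, did not pass 1.5-fold in either direction, with 0.440 per 10000 above and 0.403 below and a ratio of 1.09 (0.836 to 1.43). It was higher in GABAergic than in glutamatergic cells, at 2.55 against 0.420. In the mouse, 6 of 7 had a feature and 3 reached 50 UMIs. The receptor gene Crhr1 was higher in upper V1, at 0.401 against 0.177 and a ratio of 2.27 (1.72 to 3.02), and Crhbp had a ratio of 0.987 (0.678 to 1.44). Ucn and Ucn2, the related urocortin peptides, had no UMI in mouse V1, and opossum Ucn had 33.

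Of 8 opioid genes in the opossum, 5 were tested, of which 2 were higher in lower V1, where 7.34% of all tested genes were, 2 passed in neither direction, and the last was Penk itself, which was chosen for being higher in upper V1. Pdyn, which encodes prodynorphin, ran against Penk, with 0.0864 per 10000 above and 0.379 below and a ratio of 0.228 (0.137 to 0.363). Oprk1, the kappa receptor on which dynorphins act, had a ratio of 0.498 (0.259 to 0.917) from 53 UMIs. Pnoc (prepronociceptin) had 0.8 (0.524 to 1.21) and its receptor Oprl1 1.01 (0.811 to 1.25). In the mouse, Penk and Pdyn were the 2 of 5 tested genes past 1.5-fold, both higher in upper V1, as were 6.48% of all tested genes. Mouse Pdyn had 0.356 above and 0.194 below, a ratio of 1.83 (1.39 to 2.43), so that the direction of Pdyn differed between the sections. The direction of opossum Penk was fixed by its choice, and nothing is read from its being the same in the mouse. The mu receptor Oprm1 had 1.14 (0.787 to 1.67) in the mouse and 19 UMIs in opossum V1, and the delta receptor Oprd1 had 28 and 8 UMIs.

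Among genes that process or break down neuropeptides, 1 of 5 tested opossum genes and 2 of 7 tested mouse genes were past 1.5-fold, all higher in upper V1, against 6.79% and 6.48% of all tested genes. The convertase Pcsk1 had a ratio of 1.56 (1.32 to 1.85) in the opossum and 1.19 (1.00 to 1.41) in the mouse, and Pcsk2 had 1.41 and 1.10. Cpe, the carboxypeptidase that trims the cut ends, had 0.889 and 0.846. Pam, which amidates peptides, had 0.689 (opossum) and 1.52 (mouse). Mme, the neprilysin that degrades enkephalins, reached 50 UMIs in the mouse alone, with 1.5 (0.855 to 2.71), an interval that includes 1. Scg5 had 1.29 and 1.04, and Pcsk1n had 1.28 in the mouse. Of the other neuropeptides, Vip was higher in upper V1 in both sections, with 1.62 (1.13 to 2.34) and 2.12 (1.66 to 2.72). Nts was higher in lower V1 in the opossum, with 0.240 (0.140 to 0.391). The ratios of opossum Sst, Cck and Adcyap1 were 1.06, 1.42 and 0.710, and those of mouse Sst, Cck, Adcyap1, Npy, Tac1 and Cort lay between 0.744 and 1.15.

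**Figure D5:**
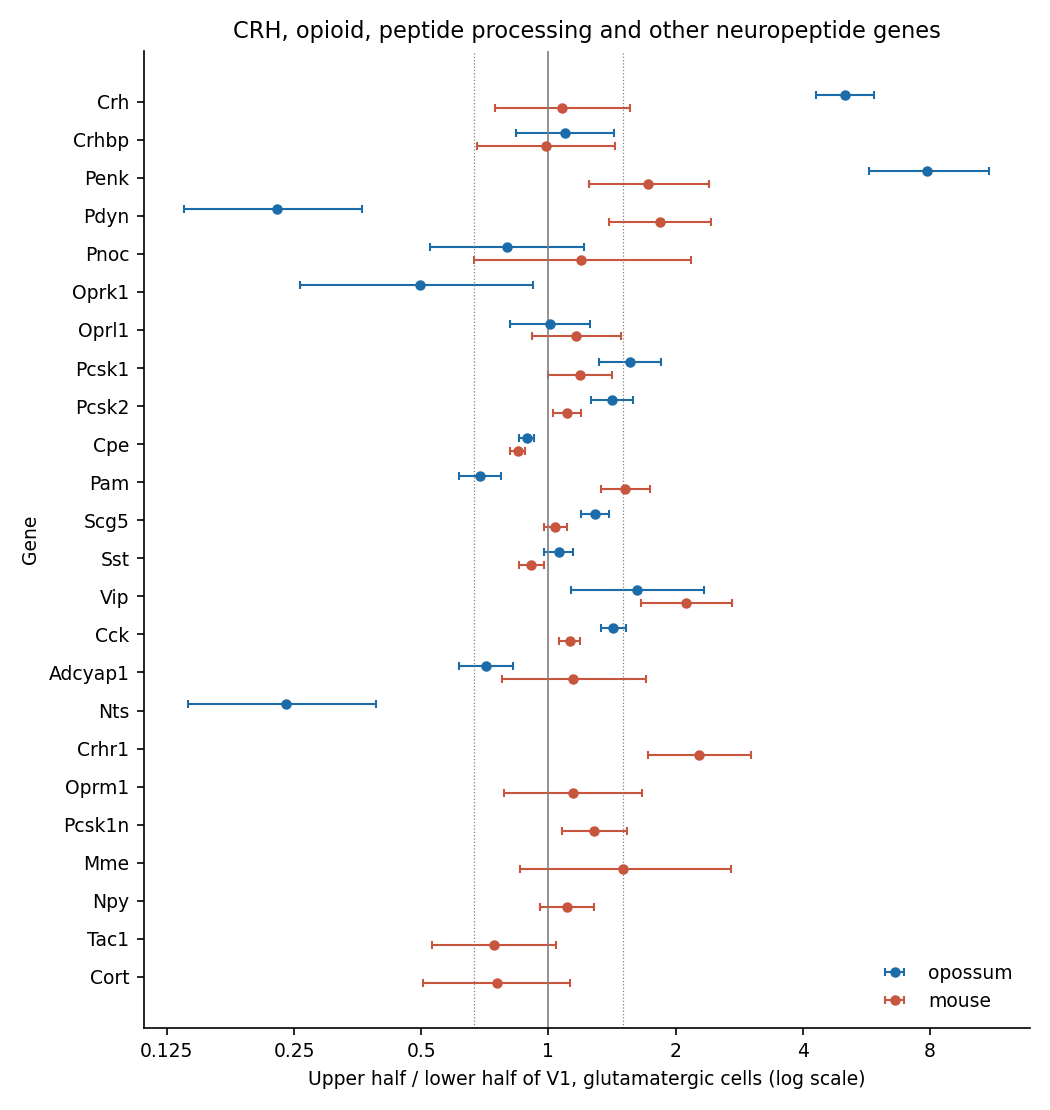
Level in upper V1 over that in lower V1 (x axis, log scale) for listed genes with at least 50 UMIs in glutamatergic cells of that species, with 95% conditional exact binomial intervals, in the opossum (blue) and the mouse (red). Dotted lines mark 1.5-fold. Opossum Crh at 5.03 and Penk at 7.88 lie farthest to the right, and opossum Pdyn at 0.228 and Nts at 0.240 farthest to the left.

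Likeness to the pattern of Crh and Penk was measured as Pearson's r of log2 levels with 0.1 added, over subclasses and over depth bins in each region. The points share a library, an animal and neighboring tissue, and r is a description. Over 14 opossum subclasses and 10208 genes, the genes most like Crh were MMP17 (0.918), ADRA1B (0.912), PPP3CA (0.868), SLC25A53 (0.860) and CHD4 (0.852). Over 30 depth bins they were PPP3CA (0.901), which encodes a catalytic subunit of calcineurin, ITPKA (0.893), CPNE4 (0.879), ARPP21 (0.870) and LINGO1 (0.867). PPP3CA was thus among the 5 on both axes. For Penk the closest over subclasses were TMEM243 (0.884), PLPPR3 (0.868), DAPK3 (0.855), RNASEH2A (0.833) and SLC45A4 (0.821), and over depth bins GALNT17 (0.834), ENSMODG00000003500 (0.831), ZBTB18 (0.826), Crh itself (0.815) and ENSMODG00000009615 (0.802). Crh and Penk had an r of 0.745 over subclasses. Both were chosen for their fall with depth, which fixes a high r between them over depth bins. Since the subclasses lie at different depths, the choice also favours a high r over subclasses, and nothing is read from either value.

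The mouse values of r were lower over depth, where counts per bin are small. Over 40 depth bins and 10971 genes, the closest to mouse Penk were Tmem215 (0.707), Rilpl1 (0.663), 4930470G03Rik (0.640), Rasgrf2 (0.629) and Camk2n1 (0.619), of which Tmem215 and Rasgrf2 had upper-over-lower ratios of 4.25 and 3.57. The closest to mouse Crh were Ccnh (0.650), Nol8 (0.633), Gnal (0.619), Psmc2 (0.587) and Pafah1b2 (0.587), with ratios of 0.941 to 1.15. Over 17 mouse subclasses, Crh was most like Gm3294, Ero1lb, Cdc14b, Dnajb1 and B230119M05Rik (0.827 to 0.866), and Penk most like Ankrd6, Gar1, Btg3, Fgf9 and Rex1bd (0.830 to 0.872). Mouse Crh and Penk had an r of 0.234 over subclasses and 0.450 over depth bins.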

How the data were processed

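Reads were processed by the authors with the SAW pipeline, against GRCm39 for the mouse and, for the opossum, an assembly whose gene models had been lengthened at their 3′ ends. The deposited values are raw UMI counts per gene in each segmented cell, with V1 regions and labels. The counts were not normalized. V1 cells below 50 genes or 100 UMIs were left out. Depth was taken from the smallest rectangle around a region, oriented from IT_A or L2/3 down to L6CT. Levels, shares and ratios were computed with shapely 2.1.2, pandas 2.3.3, scipy 1.17.1 and numpy 2.4.6 under Python 3.11.15, the coding sequence was translated with Biopython 1.88, plots were drawn with matplotlib 3.10.9, and the ratio computation was tested on simulated data. Doublets were not called, since segmented cells can hold RNA of neighbors.

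The genes, gene lists and measures were chosen with earlier results of these data known. Named genes are Crh, Penk, the listed genes, markers, and the 5 genes with the highest r on each axis. Comparison with position, cells near Crh-rich cells, joint detection, clusters within IT_A and squares outside V1 were added after seeing the data. Opossum sequences, opossum coordinates and protein sequences are not used here. No opossum feature carries the symbol Slc17a7, Pvalb, Crhr1, Crhr2, Ucn2, Pcsk1n, Tac1, Tac2 or Cort, and no mouse feature Ucn3, so these are not analysed here. The alternatives tried were other cell filters, thinning to 300 UMIs, stricter or first-round labels, means over cells, other depth limits, thresholds and measures of likeness, and each region left out in turn.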

Additional observations from a re-analysis of the deposited data

Results flagged for a closer look

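Both genes had UMIs in cells outside the V1 regions, which no comparison above uses, far above the limit that a count of 0 allows (0.000387 per 10000 in the opossum and 0.000222 in the mouse, for 3 UMIs). Opossum Crh was at 0.676 per 10000 in 74531 cells outside V1, below its level of 1.86 inside, and the highest count in 1 cell was 34 against 8 inside. Opossum Penk was at 0.822 outside, above its level of 0.577 inside, and 94.1% of its UMIs lay outside. Mouse Crh was at 0.0845 outside, below its level of 0.145 inside. Mouse Penk was at 0.308 outside, above its level of 0.212 inside, with 169 cells of 3 or more UMIs. The tissue outside V1 carries no region label here.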

How the results depend on the processing

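Of 221 values under alternative settings, 148 stayed within the counting interval or 1.5-fold of the count, 73 moved and 0 changed the direction of a called value; the cause was not tested. Comparing the uppermost with the lowest of 3 equal parts of the depth gave opossum ratios of 11.0 (all cells), 10.5 (glutamatergic) and 4.71 (IT_A) for Crh and of 9.88 (all), 11.1 (glutamatergic) and 22.1 (IT_A) for Penk, and dividing the mouse at the median depth of L4 gave 1.43 for Crh in all cells. Thinned to 300 UMIs, opossum Crh was at 2 per 10000 in all and 2.09 in glutamatergic cells, with positive shares of 5.16%, 5.27% and 7.38% (all, glutamatergic, IT_A), and opossum Penk at 0.502, 0.533 and 0.756 per 10000 with shares of 1.4%, 1.46% and 2.01%. In the mouse, thinning gave a Crh level of 0.117 in L2/3, Crh shares of 0.400%, 0.421% and 0.352% (all, glutamatergic, L2/3) and ratios of 0.666, 0.579 and 0.514, all below 1, and for Penk a level of 0.248 in all cells, shares of 0.689%, 0.599% and 1.05% and a glutamatergic ratio of 2.79. With first-round labels, opossum glutamatergic cells had a Crh level of 1.68, share of 19.4% and ratio of 10.7 and a Penk level of 0.734, share of 9.29% and ratio of 15.9, and IT_A a Crh share of 29.8% and ratio of 3.54 and a Penk level of 1.38 and share of 15.2%. With the same labels, mouse glutamatergic cells had a Crh level of 0.0913, share of 1.14% and ratio of 1.59 and a Penk ratio of 2.68, and L2/3 a Crh level of 0.108 and share of 1.17%. Cells glutamatergic by both labels had an opossum Penk share of 7.56%. Means over cells gave opossum Crh levels of 2.12 (all) and 2.28 (glutamatergic) and Penk levels of 0.646 and 0.702. Genes higher in upper and in lower V1 numbered 259 and 242 (opossum) and 283 and 195 (mouse) with at least 200 UMIs, 5865 and 5705 and 11190 and 8811 with at least 1 UMI, and 182 and 227 and 234 and 141 at 2-fold. Spearman's rho kept 3 (Crh, subclasses), 1 (Crh, depth), 3 (Penk, subclasses) and 3 (Penk, depth) of the 5 most similar opossum genes, and 3 (Crh, depth), 1 (Penk, subclasses) and 2 (Penk, depth) in the mouse. Requiring detection in 5% of cells kept 2 (opossum Penk, subclasses), 1 (mouse Crh, subclasses), 2 (mouse Penk, subclasses) and 3 (mouse Penk, depth). Leaving out each region in turn moved 5 of 126 values beyond their intervals, and the opossum IT_A Penk ratio ranged from 8.70 to 19.2 (without region 1) within its own: the opossum Crh level ranged from 1.74 to 2.02 (all) and from 1.84 to 2.06 (glutamatergic), the mouse glutamatergic Crh ratio from 0.748 (without region 2) to 1.44, and the mouse L2/3 Penk level from 0.262 to 0.448 (without region 1). No paired analysis was possible because each species has 1 animal and no test was made.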

Other observations

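Outside V1 of the opossum the genes were concentrated in different places. In squares of 250 µm with at least 50000 UMIs, opossum Crh was at 12.1 per 10000 (10.6 to 13.8, from 218 UMIs) in the highest of 475 squares, against a median square of 0.268 and a highest V1 region of 2.37. The 10 squares highest in Crh held 19.2% of the Crh UMIs in these squares and 1.78% of all UMIs, and Penk there was at 0.538. The highest Penk square of the opossum was at 4.8 (3.53 to 6.38), and in the 10 squares highest in Penk, Crh was at 0.102. These squares were chosen by the gene itself, so that its level in them is a description. In the 10 opossum squares highest in Crh, the glutamatergic genes did not move 1 way against all cells outside V1: Nrgn was at 26.4 against 17.5 and Cux2 at 1.43 against 0.941, but Sv2b at 1.55 against 1.78 and Foxp2 at 1.01 against 1.31. The GABAergic genes Gad1, Gad2 and Slc32a1 were at 1.55, 1.63 and 0.913, against 2.97, 3.25 and 2.11.

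In the mouse, Penk reached 4.12 per 10000 (3.29 to 5.10, from 85 UMIs) in the highest of 614 squares, against a median of 0.224, and the 10 squares highest in Penk held 13.3% of its UMIs in these squares. In those 10, Gad1 was at 1.34, Gad2 at 0.676 and Slc32a1 at 0.533, against 2.14, 0.795 and 0.731 over all cells outside V1. The glutamatergic genes did not move 1 way here either. Sv2b was at 4.87 against 4.03 and Slc17a7 at 11.7 against 10.0. Nrgn was at 11.6 against 12.7, Cux2 at 0.523 against 0.593 and Foxp2 at 0.0845 against 0.223. The highest mouse Crh square had 10 UMIs, or 1.04 per 10000 (0.497 to 1.91). In the 10 mouse squares highest in Crh, Penk was at 0.313, against 0.308 over all cells outside V1. Crh was at 0.0792 in the 10 highest in Penk, against 0.0845.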
